A study of Drosophila melanogaster with 3 samples.

Results

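The X chromosome held 730 of the 3922 sites at which tagged CG16815 was called in the authors' final list for the dm6 genome build of Drosophila melanogaster. The members are all rows of that list on the X, each taken as 1 site at its summit, and they are set against the 2522 sites of the autosomal arms 2L (731), 3L (852) and 3R (939). The 730 rows cover 727 distinct regions, 3 of which have 2 summits. The assay was chromatin immunoprecipitation followed by sequencing (ChIP-seq) of whole embryos of both sexes, pooled, from 0 to 10 hours of development. The strain carries a transgene in which green fluorescent protein is fused to the C terminus of CG16815, a gene known by its annotation number, and the fusion protein was pulled down with an antibody to the tag. All 3 biological replicates belong to this 1 group, so the X is compared with other arms and not with another condition, and no control library was analysed here. A whole embryo mixes many cell types and stages, and a site cannot be assigned to any of them.

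Male flies carry a single X and females a pair, and in males the MSL complex, guided by the roX RNAs, raises transcription of X genes to balance the difference. The X is also known for developmental genes with long introns, and introns of such genes often hold enhancers, the elements that drive transcription from a distance. Promoters, in contrast, lie at the transcription start site (TSS) itself.

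The sequence under the summits is shown for 7 of the strongest X sites described below and for a pair that hold a full DRE, the element bound by the promoter factor DREF. Each line is 101 bases of the reference genome centred on the summit, on the plus strand, 5′ to 3′. Capitals mark matches on either strand. The TATA box was searched as TATAAA, the homeodomain core as TAATTA and the caudal class of homeodomain sites as TTATGA. The DRE was searched as TATCGATA, which holds the BEAF-32 core CGATA, the GATA motif as AGATAA and the A tract as AAAAAAAA. A match is a description of the letters and not a shown binding site.
ph-p, promoter, chrX:2137278-2137378: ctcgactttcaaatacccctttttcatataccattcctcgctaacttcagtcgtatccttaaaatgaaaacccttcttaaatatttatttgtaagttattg
Ugalt, promoter, chrX:2703845-2703945: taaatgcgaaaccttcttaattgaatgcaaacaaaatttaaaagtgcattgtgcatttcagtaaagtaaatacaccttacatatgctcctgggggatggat
CG32772, intron, chrX:4910307-4910407: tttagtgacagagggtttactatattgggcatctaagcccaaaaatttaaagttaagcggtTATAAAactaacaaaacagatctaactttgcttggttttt
Tlk, intron, chrX:3742162-3742262: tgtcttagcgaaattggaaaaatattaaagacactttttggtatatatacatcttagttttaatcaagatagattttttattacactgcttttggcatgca
elav, promoter, chrX:523395-523495: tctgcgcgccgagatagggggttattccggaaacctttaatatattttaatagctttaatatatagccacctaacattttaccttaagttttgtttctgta
norpA, intron, chrX:4324945-4325045: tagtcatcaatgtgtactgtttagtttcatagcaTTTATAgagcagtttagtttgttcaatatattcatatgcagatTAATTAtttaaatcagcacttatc
bbx, promoter, chrX:21367802-21367902: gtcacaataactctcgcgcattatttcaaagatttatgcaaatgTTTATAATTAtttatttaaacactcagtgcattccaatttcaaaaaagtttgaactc
RpS15Aa, promoter, chrX:13337634-13337734: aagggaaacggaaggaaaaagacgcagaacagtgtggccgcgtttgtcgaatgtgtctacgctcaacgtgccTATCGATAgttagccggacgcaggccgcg
Rnp4F, promoter, chrX:5322730-5322830: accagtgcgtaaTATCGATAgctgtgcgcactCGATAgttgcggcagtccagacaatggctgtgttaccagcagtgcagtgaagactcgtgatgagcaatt
The windows of the strongest sites were rich in A and T, and 4 of the 7 shown held no match to any of these motifs. The DRE windows belonged to sites of middling signal.

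Each region has a signal value, as the authors' peak caller wrote it, whose normalisation is not stated, so signal serves here to rank regions within 1 list. The final list equals the 3922 regions of highest signal in the list called on the 3 replicates pooled. Accordingly, the 3922 best-ranked regions of each replicate list stand for that replicate, and a value given as mean ± SD (n = 3) is over those. Replicate 3 stood apart: across X sites found in both lists, the Spearman rank correlation of signal was 0.84 for replicates 1 and 2, 0.58 for replicates 1 and 3 and 0.59 for replicates 2 and 3. The depth of the libraries is unknown, sites of 1 gene are not independent of each other, and all intervals and p-values over sites or genes cover counting error only.

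The strongest X sites are described gene by gene. The highest signal of the X, 2758, was 473 bp upstream of a TSS of ph-p, a gene of the Polycomb repressive complex PRC1, in the region chrX:2137147-2137592. It ranked 4, 6 and 3 in replicates 1, 2 and 3. A second ph-p site, 432 bp downstream of a TSS, had a signal of 1281 and ranked 47, 51 and 123. The neighbouring copy of the gene, ph-d, had a site 791 bp upstream of its nearest TSS with a signal of 991 and ranks of 113, 97 and 207. The second strongest site of the X, with a signal of 2640.4, lay 43 bp upstream of a TSS of Ugalt, which encodes a transporter of UDP-galactose. It ranked 3, 3 and 19, so replicate 3 placed it lowest.

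Introns held the next strongest sites. CG32772 had a signal of 1993 at 1255 bp from the nearest coding TSS, with ranks of 14, 14 and 23. Tlk, which encodes the Tousled-like kinase, had a signal of 1613, with ranks of 35, 39 and 18. LPCAT, a lysophospholipid acyltransferase gene, had a signal of 1575. Introns of Zw (1109.8), the gene of glucose-6-phosphate dehydrogenase, Smr (1070.5), a nuclear corepressor gene, Raf (930.1), the kinase of the Ras pathway, CG3726 (1213) and norpA (856), the phospholipase C of phototransduction, followed. The norpA site was the least alike between replicates, ranking 82 and 116 in replicates 1 and 2 but 2259 in replicate 3.

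Promoter sites among the strongest included Atf3 (1599), a bZIP transcription factor gene, with ranks of 25, 22 and 170. Ranks were 94, 98 and 105 at elav, the gene of the neuronal RNA-binding protein, where the signal was 1075. Others were MFS10 (1358), a transporter gene, TRAM (1089), a gene of protein translocation at the endoplasmic reticulum, CBP (969), a calcium-binding protein gene, bves (894), dnc (873), the cAMP phosphodiesterase gene, and bbx (824), an HMG box gene. CG8034 (1174) and CG42354 (969) completed the coding promoters. A pair of sites 6055 and 5054 bp from the nearest coding TSS, that of CG4004, had signals of 1570.5 and 1133, and the second of these lay at the TSS of the noncoding gene lncRNA:CR44619. The remaining site, nearest to CG3149, was intergenic with a signal of 843.

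By class, 14 of these 25 sites were in promoters, 8 in introns, 2 in intergenic sequence and 1 in a noncoding exon. None ranked below 269 in replicate 1 or 186 in replicate 2, while replicate 3 gave 559 to bbx, 602 to dnc and 489 to Raf besides the 2259 of norpA. One stronger X site, with a signal of 1411 and 4852 bp from the TSS of CG4004, was left out because replicate 1 had no summit within 150 bp of it. It is another summit of the same region, chrX:12750838-12751631, as the listed site with a signal of 1133. That listed site ranked 63 in replicate 1, and in replicate 2 both took the same rank, 46.

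**Figure D1:**
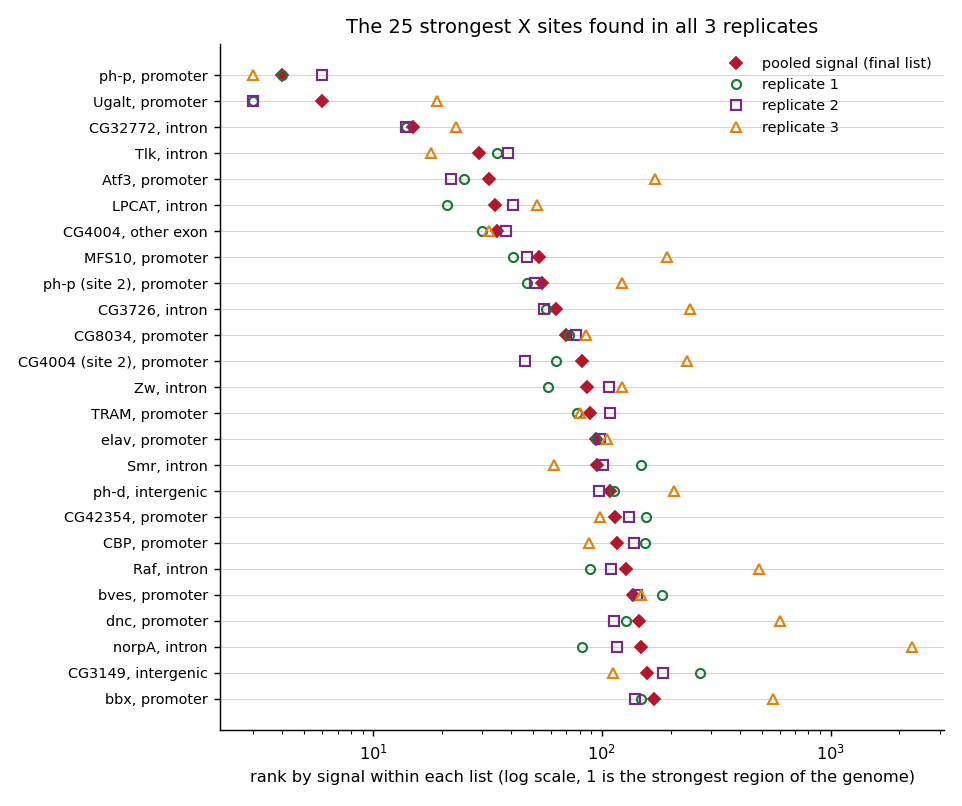
Rank by signal of the 25 strongest X sites with a summit within 150 bp in all 3 replicates, on a log axis, in the final list (diamonds) and in replicates 1 (circles), 2 (squares) and 3 (triangles), with the location class beside each name. Replicates 1 and 2 stay close to the pooled rank in every row, and replicate 3 lies far to the right at norpA, where its rank is 2259.

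At the other end, the weakest X sites that passed were at Nrg (signal 125.2), HP1b (125.1) and RhoGAP18B (124.9). The highest X regions that did not pass were at Stt3A (124.6), Cdc7 (123.9) and kek5 (123.8).

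Along the X, passing sites were spread over nearly the whole arm, with crowded stretches in the distal part and almost none next to the centromere. The median was 33 sites per 1 Mb bin over the 23 full bins. The most crowded were the fourth bin (3 to 4 Mb) with 54 sites, the eighth (7 to 8 Mb) with 54 and the third (2 to 3 Mb) with 53. The strongest site of these bins belonged to Tlk, CBP and ph-p in that order. The fewest sites were in the partial last bin, with 0, in the bin from 22 to 23 Mb, with 2, and in that from 20 to 21 Mb, with 11. The fourth bin held 98.2 sites per 100 protein-coding genes, with 55 coding genes, and 39 of its 54 sites were in introns. The bin from 15 to 16 Mb, in contrast, had the most coding genes, 140, and only 27 sites.

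The replicates gave the same picture. The fourth bin held 54, 52 and 48 of the best-ranked regions of replicates 1, 2 and 3, and the bin from 22 to 23 Mb held 3, 1 and 0. Across the 23 bins, the Spearman rank correlation of passing sites with each replicate's count was 0.97, 0.98 and 0.93, but these counts share their reads with the final list. The variance of the bin counts was 5.82 times their mean on the X. Over bins with at least 10 coding genes it was 6.07 on 2L, 6.88 on 3L and 3.45 on 3R, so the unevenness of the X lay within the range of these arms. Bins are not replicates, and no test was made. Of the X sites, 51.0% had another within 5 kb, compared with 52.7% on 2L, 52.0% on 3L and 51.9% on 3R.

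**Figure D2:**
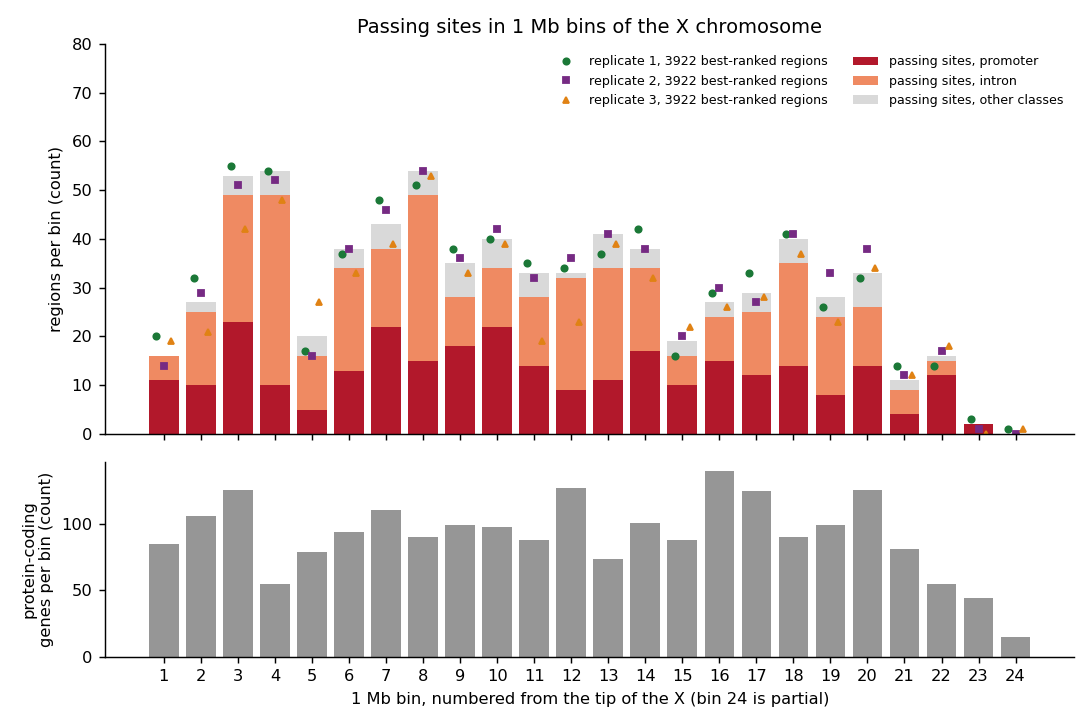
Passing sites in each 1 Mb bin of the X, stacked as promoter, intron and other sites, with the best-ranked regions of replicates 1 (circles), 2 (squares) and 3 (triangles), above the number of protein-coding genes in the same bins. The fourth bin holds 54 sites, 39 of them in introns, over 55 coding genes, and the last 2 bins are nearly empty.

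The density of passing sites on the X did not differ detectably from that of 2L, 3L and 3R. It was 31.0 sites per Mb on the X and 30.1 per Mb on 2L, 3L and 3R together, a ratio of 1.03 (95% interval 0.946 to 1.12, exact binomial p = 0.498, two-sided). By arm, the autosomal density was 31.1 per Mb on 2L, 30.3 on 3L and 29.3 on 3R. Outside the comparison, it was 25.9 per Mb on 2R and 10.4 on chromosome 4. The ratio was 1.06, 1.05 and 0.927 in replicates 1, 2 and 3, with a mean of 1.01 ± 0.0752 (SD, n = 3).

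Regions that did not pass were sparser on the X than on 2L, 3L and 3R. The pooled list, which holds background as well as peaks, had 2207 regions on the X that did not pass, or 93.7 per Mb, against 119.6 per Mb on 2L, 3L and 3R. The ratio was 0.784 (95% interval 0.748 to 0.821, exact binomial p = 2.37e-26). Outside the comparison, 2R had 99.9 such regions per Mb, close to the X, and chromosome 4 had 71.2. Below the best-ranked regions of each replicate list the ratio was 0.676, 0.815 and 0.766, a mean of 0.752 ± 0.0707 (SD, n = 3). An exact sign-flip test over 3 replicates cannot give a two-sided p under 0.25. Thus 24.9% of the pooled regions of the X passed, compared with 20.1% of those of 2L, 3L and 3R (log2 odds ratio 0.39, SE 0.0695, Fisher's exact p = 2.61e-08). Single arms ranged from 19.7% on 2L to 20.6% on 3R, under the 95% interval of the X, 23.3 to 26.5%. These comparisons of weaker regions were added after the data were examined, and how deep each list was called sets what they contain. The effect of the single X of males on these counts was not tested.

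Passing sites of the X lay in introns far more often than those of the autosomal arms. Introns held 351 of the 730 X summits, or 48.1%, against 31.6% on 2L, 3L and 3R. The log2 odds ratio was 1.00 (SE 0.123, Fisher's exact test, Benjamini-Hochberg adjusted over 7 classes, p = 6.09e-15). Each autosomal arm was below the X, with 30.2% on 2L, 29.9% on 3L and 34.3% on 3R. Intergenic sequence, in turn, held 65 X summits, or 8.90%, against 19.7%, a log2 odds ratio of -1.32 (SE 0.200, exact adjusted p = 2.58e-12). Single arms ranged from 14.3% on 3R to 25.2% on 3L. Promoters, counted within 500 bp of any TSS, held 291 X summits, or 39.9%, against 46.8% (log2 odds ratio -0.41, SE 0.123, exact adjusted p = 0.00230). Against 3L alone, at 43.0%, the promoter difference did not pass (exact adjusted p = 0.384).

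The remaining classes were small. The 3' UTRs held 10 summits on the X, or 1.37%, and 10 on the autosomal arms, or 0.397%, which passed (log2 odds ratio 1.80, exact adjusted p = 0.0107) but not among the 1961 sites of highest signal, where it was 0.21. Exons of noncoding genes held 8 X summits, 5' UTRs held 3 and coding exons held 2, and none of these classes passed. In all, 4 of the 7 classes (57.1%) differed.

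**Figure D3:**
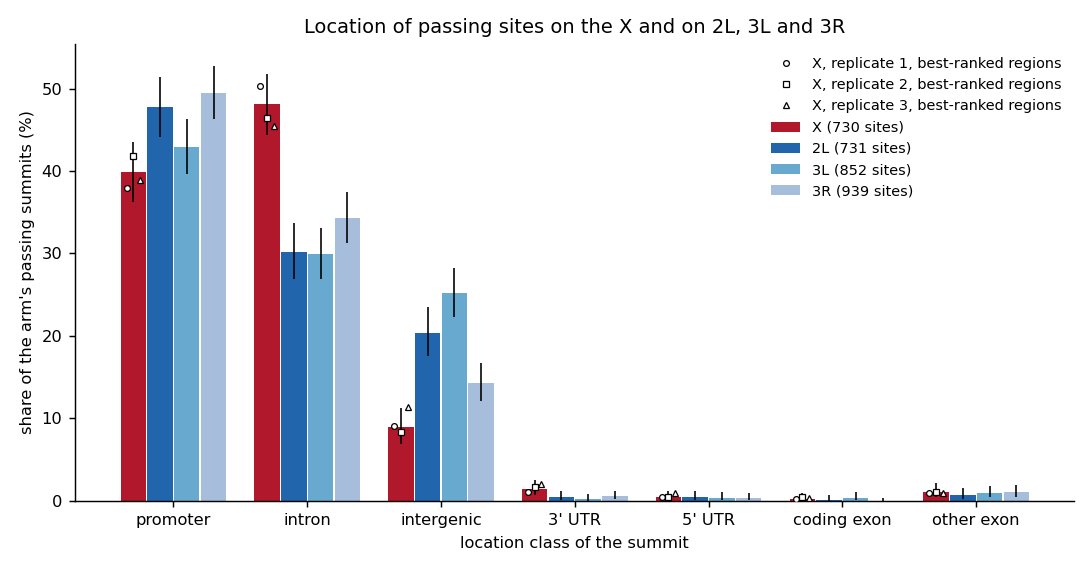
Share of passing summits in each location class, as bars for the X, 2L, 3L and 3R with 95% exact binomial intervals, and open symbols for the best-ranked X regions of replicates 1, 2 and 3. The X bar stands highest for introns, at 48.1%, and lowest for intergenic sequence, at 8.90%.

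The intron and intergenic shifts passed in each replicate. In replicates 1, 2 and 3 the intron share of the best-ranked X regions was 50.3, 46.4 and 45.5%, a mean of 47.4% ± 2.57, against 32.7% ± 1.78 on 2L, 3L and 3R (SD, n = 3 each). The lowest X replicate lay above the highest autosomal value, 34.8%. The log2 odds ratio was 0.89 ± 0.0333 for introns, -1.25 ± 0.0299 for intergenic sequence and -0.28 ± 0.0882 for promoters (SD, n = 3 each). The promoter shift did not pass in replicate 3 (-0.20, Fisher's exact test, adjusted p = 0.156), nor the 3' UTR shift in replicate 1 (1.19, exact adjusted p = 0.182).

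The annotation of the X itself differs in the same direction but by less. Introns make up 43.3% of the X and 39.2% of 2L, 3L and 3R, and intergenic sequence makes up 22.6 and 28.0%. Per Mb of intron there were 34.4 sites on the X against 24.3, a ratio of 1.41 (95% interval 1.24 to 1.60, exact binomial, adjusted p = 8.92e-07). Per Mb of intergenic sequence there were 12.2 against 21.2 (ratio 0.577, exact adjusted p = 3.51e-05). Within promoters the densities were 98.0 and 103.9 per Mb (ratio 0.944, 95% interval 0.827 to 1.07, exact adjusted p = 0.539). The excess of 3' UTR sites did not pass on this measure (ratio 2.47, 95% interval 0.922 to 6.61, exact adjusted p = 0.110). X regions that did not pass were in introns in 51.9% of cases, against 41.7% on the autosomal arms.

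Intron sites of the X were spread over 179 coding genes, and the 15 with most, picked out after their values were seen, held 112 of the 351. CG1677, a gene of 124.7 kb, held 16 intron sites with signals of 131.8 to 782, and kirre, a gene of 394 kb that encodes an immunoglobulin domain protein of myoblast fusion, also held 16, with 125.4 to 779. CG1677 spans other genes: its strongest intron site lay 743 bp upstream of a TSS of brk, and the next, at 744, also lay within Dok. Raf held 9 intron sites in 48.4 kb, and its strongest, at 930.1, was among the 25 above. Hr4, a nuclear receptor gene, and Tlk held 8 each. CG43658, Mnt, which encodes a repressor partner of Max, and CHES-1-like, a forkhead factor gene, held 7 each. Counting sites of every class, CHES-1-like had 33.3 per 100 kb of gene, compared with 4.82 in kirre. Next came Drak with 6, and Bx, CG12535, Smr and Ten-a with 5 each. These counts are not scaled by gene length. Ten-a, a gene of 292 kb, had 1.72 sites of every class per 100 kb, while the X as a whole held 31.0 sites per Mb. A site counts for every coding gene that spans it, and 13 of the 351 intron sites lay in introns of noncoding genes alone.

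Without all sites inside CG1677 and kirre, introns held 46.0% of the X summits (log2 odds ratio 0.88, Fisher's exact test, adjusted p = 3.16e-11). Taking the gene as the unit, 179 of 2196 coding genes of the X (8.15%) held an intron site, compared with 488 of 8817 (5.53%) on 2L, 3L and 3R (log2 odds ratio 0.60, SE 0.131, Fisher's exact p = 8.23e-06). The log2 odds ratio was 0.52, 0.56 and 0.42 in replicates 1, 2 and 3. Of these 179 genes, 114 held a single intron site. Genes over 20 kb made up 9.02% of coding genes on the X, against 6.93% on 2L, 6.94% on 3L and 7.19% on 3R. Among them 47.5% of the X genes and 38.5% of the autosomal genes held an intron site (log2 odds ratio 0.53, SE 0.237, Fisher's exact p = 0.0306), but replicates 1 and 3 alone did not pass (p = 0.140 and 0.153). Most intron sites were remote from promoters: 63.0% of those on the X lay over 2 kb from a coding TSS, as did 61.5% on 2L, 62.4% on 3L and 56.8% on 3R.

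**Figure D4:**
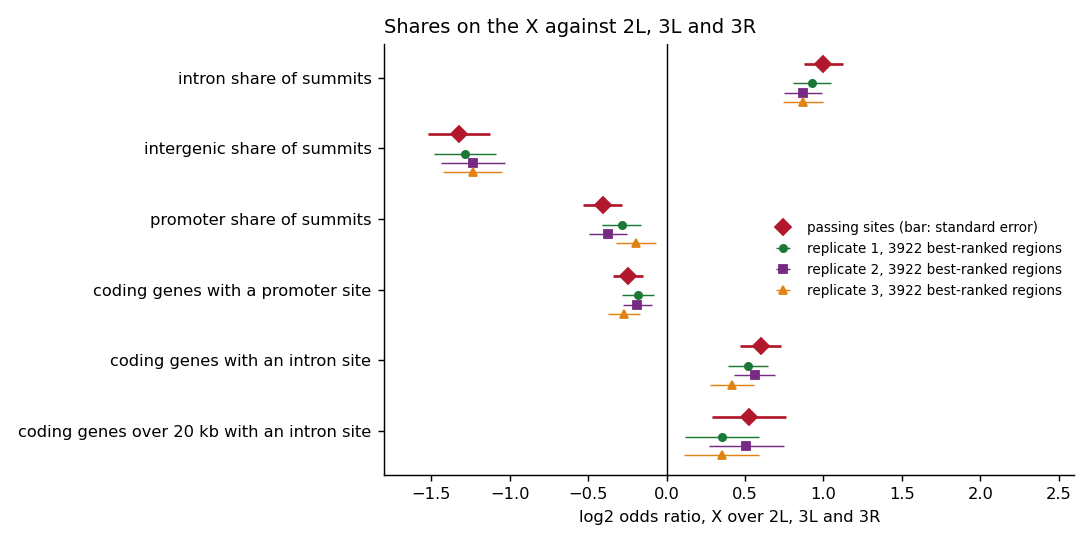
Log2 odds ratio of the X over 2L, 3L and 3R for 6 shares, from the passing sites (diamonds) and from the best-ranked regions of replicates 1 (circles), 2 (squares) and 3 (triangles), with bars of 1 standard error. All points for introns lie right of 0 and all points for intergenic sequence, promoters and coding genes with a promoter site lie left of it.

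In strength, ranked by signal, no difference between X sites and those of the other arms was detected. Males carry a single X, and the effect of its copy number in these mixed embryos on the ranks was not tested. The median signal was 216 on the X, against 227.8 on 2L, 218 on 3L and 210.1 on 3R. The 1961 strongest of all passing sites took in 49.5% of the X sites and 49.8% of the autosomal ones (log2 odds ratio -0.02, SE 0.121, Fisher's exact p = 0.867). For the 392 strongest the shares were 9.18% (95% interval 7.18 to 11.5) and 10.2% (9.04 to 11.4), with p = 0.441 by the same exact test. By class, the median on the X was 245 in promoters, 204 in introns and 184 in intergenic sequence, against 249, 202 and 195 on 2L, 3L and 3R. The 392 strongest took in 31 promoter sites of the X (10.7%) against 15.3% of the autosomal ones (log2 odds ratio -0.59, SE 0.296, Fisher's exact test, adjusted p = 0.285, unadjusted p = 0.0407), and 30 intron sites (8.55%) against 6.02% (0.55, SE 0.347, exact adjusted p = 0.296). None of the 7 classes (0%) passed, 1 had an unadjusted p under 0.05, and the comparison by class was added after the data were examined.

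In the replicate lists, X sites were found as often as others. All 3 lists had a summit within 150 bp for 640 X sites (87.7%) and 88.1% of the autosomal sites (Fisher's exact p = 0.747), although recovery is partly built in because the sites were called on the same replicates. A further 86 X sites were in a pair of lists and 4 in a single one. The best-ranked regions of replicates 1, 2 and 3 held 83.3, 93.0 and 71.1% of the X sites, against 80.6, 90.7 and 73.9% of the autosomal sites. None of the 3 differences passed (Fisher's exact test, adjusted p = 0.129 for each, and 0 of 3 had an unadjusted p under 0.05). The direction in replicate 3 was opposite to that in replicates 1 and 2. The 1961 best-ranked regions of replicate 3 held fewer X sites (log2 odds ratio X over 2L, 3L and 3R -0.37, exact adjusted p = 0.00842).

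Median ranks of X sites were 1745, 1985.5 and 2173 in replicates 1, 2 and 3. In replicate 3 the medians of the other arms were 1792 on 2L, 1861 on 3L and 1997 on 3R, while in replicate 1 they were 1759, 1917 and 1989. The best-ranked regions of all 3 replicates shared 425 X sites (58.2%), compared with 57.0% of the autosomal sites (Fisher's exact p = 0.581). Intron sites of the X were in the best-ranked regions of replicate 3 in 68.4% of cases and its promoter sites in 73.9%, against 70.1 and 74.9% on the autosomal arms.

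Of the 2196 coding genes of the X, 321 (14.6%) had a passing summit within 500 bp of a TSS, and such genes are called bound here. On 2L, 3L and 3R 1488 of 8817 (16.9%) were bound (log2 odds ratio -0.24, SE 0.0963, Fisher's exact p = 0.0110). The replicates gave -0.18, -0.19 and -0.27, a mean of -0.21 ± 0.0499 (SD, n = 3). When each summit was given only to its nearest coding TSS, the difference did not pass (log2 odds ratio -0.026, exact p = 0.823).

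Listed groups of X genes are given by their counts, which stand beside the 14.6% of all X coding genes. Members were chosen with earlier results of these data known, so no list was tested, the ribosomal protein genes included. For the other lists of coding genes described here, the exact 95% interval of the bound share included 14.6%. Such intervals were wide, for example 0.421 to 64.1% for the 6 genes named next, and they decide nothing. Among 6 genes of the X signal and sex determination, only Sxl, the switch gene of the female fate, was bound, with a signal of 350 and ranks of 938, 681 and 2221. The dosage compensation genes roX1, roX2 and mof were not bound and had no summit at a TSS in the pooled list. Of 5 autosomal members of that group, JIL-1, a histone H3 kinase gene, was bound (240 on the signal scale). Of 11 listed genes of embryonic patterning none was bound, while sog, an inhibitor of BMP signalling, had 3 sites inside the gene or within 500 bp of it and disco-r had 1. The list drawn up for the achaete-scute complex and early neural genes had 2 of 8 bound, elav (1075) and svr (241). On that list, ac, sc, l(1)sc and ase had no summit at a TSS in the pooled list of regions. The share of all X coding genes with a pooled summit at a TSS is not given here. On other lists, 1 of 11 patterning genes, 7 of 16 signalling genes and 14 of 14 ribosomal protein genes had such a summit. None of 22 odorant receptor, gustatory receptor and cuticle genes was bound.

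Signalling genes had 3 of 16 bound, namely sgg (748), the glycogen synthase kinase 3 gene, and the polarity genes par-6 (431) and dlg1 (288). Raf, kirre and N, the Notch receptor gene, were not bound at a TSS but had 11, 19 and 1 sites inside the gene or within 500 bp of it. The list drawn up for chromatin had 6 of 19 bound, led by ph-p, with hfw (209), bif (201) and e(y)2 (188), a subunit of the SAGA complex, next. Of these, hfw and bif, the gene of a cytoskeletal protein, are not known as chromatin genes, and without them 4 of 17 were bound. Cell cycle and growth genes had 4 of 13 bound, which were mei-41 (548), the ATR kinase gene, Top1 (325), the topoisomerase I gene, Mnt (209.8) and CycD (131.9), the cyclin D gene. The mei-41 site is shared with TH1, whose TSS is nearer, at 66 bp. Neural excitability and clock genes had 3 of 12, namely dnc (873), the neuropeptide gene amn (523) and sol (359). Of 21 genes named for visible markers, car (366) and fw (127.0) were bound. The fw site ranked 3804, 3007 and 27146 in replicates 1, 2 and 3.

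Of the 14 ribosomal protein genes on the X, 12 were bound. The highest were RpS28b (351), RpL22 (317), RpS5a (288) and RpS10b (274). Their sites were not equally found in the replicates, since 6, 9 and 12 of the 14 were bound by the best-ranked regions of replicates 1, 2 and 3. RpS28b ranked 1822, 1014 and 604, and RpL22 ranked 2906, 1348 and 515. All 12 bound genes had their best rank in replicate 3, and 5 of them had no summit in replicate 1 within 150 bp. Among small RNA genes, 2 of 24 tRNA genes and 2 of 58 microRNA genes had a passing summit within 500 bp. The 14.6% above covers coding genes only, and the share over all noncoding X genes is not given here. These were tRNA:Gln-TTG-2-1 (488), tRNA:Phe-GAA-1-2, which shares the site of RpL17 (268), mir-9377 (527) and mir-2496 (195). The mir-2496 site ranked 14550 and 1827 in replicates 1 and 2 and had no summit within 150 bp in replicate 3.

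Summit sequence of the X was compared with its own flank, a second 101 bp window whose centre lies 450 bp towards higher coordinates, for the 14 motifs. The TATA box, the caudal class and the homeodomain core were more frequent at summits. TATAAA was in 25.6% of X summit windows against 9.45% of flanks (log2 ratio of discordant pairs 1.74, exact McNemar test, adjusted p = 5.80e-15). TTATGA was in 8.63 against 4.38% (0.99, exact adjusted p = 0.00480), and TAATTA was in 10.7 against 6.30% (0.78, exact adjusted p = 0.0104). Lower at summits were the CA repeat CACACACA with 0.959 against 6.03% (-2.57, exact adjusted p = 8.48e-07), the GA repeat GAGAGAGA with 0.274 against 2.88% (-3.10, exact adjusted p = 0.000308) and the Myc E-box CACGTG with 0.274 against 2.19% (-2.72, exact adjusted p = 0.00459). Thus 3 of 14 motifs (21.4%) were higher and 3 (21.4%) lower. The DRE, in 7 X summit windows against 1 flank, did not pass (exact adjusted p = 0.141), nor did GATA (7.67 against 5.62%), the A tract, the Snail E-box CAGGTG, the Zelda motif CAGGTA, the BEAF-32 core, motif 1 (GGTCACAC) or the AP-1 site TGACTCA.

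Base composition moved with these matches. Mean GC content was 32.9% ± 8.42 in X summit windows against 43.1% ± 10.1 in their flanks (SD over 730 sites), and its part in the motif counts was not tested. TATAAA, CACACACA and GAGAGAGA passed in the best-ranked X regions of all 3 replicates. TAATTA and TTATGA passed in replicate 1 alone and CACGTG in replicate 3 alone, and CACGTG lost its call in windows of 25 or 100 bp each side of the summit, with flanks towards lower coordinates and among the 1961 strongest sites.

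**Figure D5:**
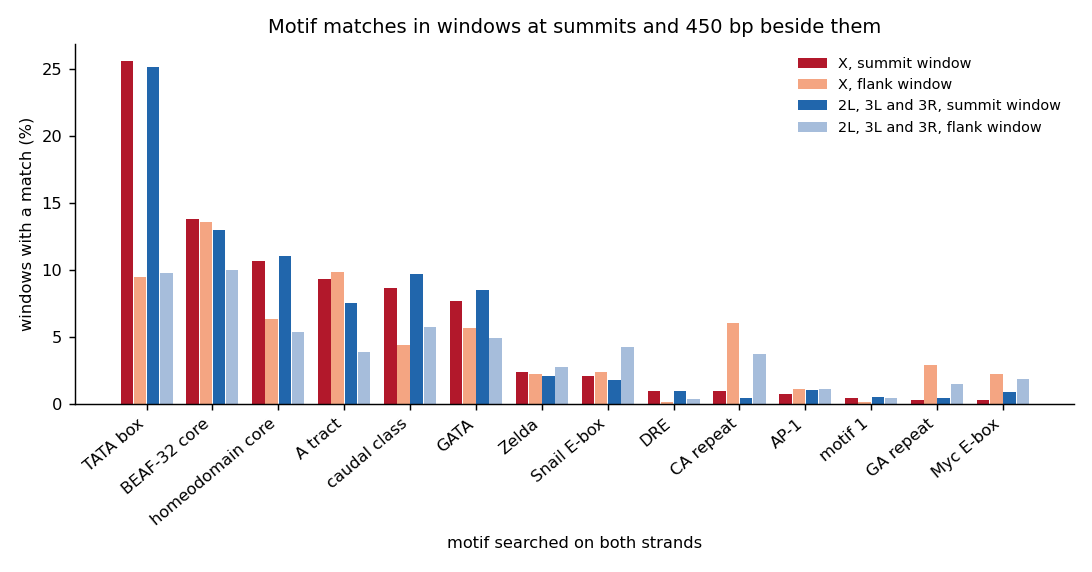
Share of 101 bp windows with a match to each of 14 motifs, for X summits and X flanks and for summits and flanks of 2L, 3L and 3R. TATA box matches reach 25.6% of X summits against 9.45% of X flanks, and the A tract is the motif whose X flanks, at 9.86%, exceed the autosomal flanks, at 3.85%, the most.

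Between arms, motif shares were compared at summits and in flanks. None of the 14 motifs (0%) differed between X summits and summits of 2L, 3L and 3R (Fisher's exact test, adjusted over the motifs), and at an unadjusted p under 0.05 the count was also 0. TATAAA, for example, was in 25.6% of X summits and 25.1% of autosomal ones. With windows of 100 bp each side 2 motifs differed. No motif passed at summits in a replicate. For CACACACA the log2 odds ratio was 1.29, 0.60 and 1.42 in replicates 1, 2 and 3 (unadjusted Fisher's exact p = 0.0471, 0.428 and 0.00642). The adjusted p in replicate 3 was 0.0899, with 2.25% of X summits against 0.859%. In replicate 3 TTATGA (-0.54) and the A tract (0.45) also had an unadjusted p under 0.05 (exact p = 0.0197 and 0.0434). In flanks, 3 of 14 (21.4%) differed. The A tract was in 9.86% of X flanks against 3.85% (log2 odds ratio 1.45, SE 0.233, exact adjusted p = 2.70e-08), and the shares were 10.7, 9.68 and 9.58% of X flanks in replicates 1, 2 and 3. CACACACA was in 6.03 against 3.73% and CGATA in 13.6 against 9.95% (exact adjusted p = 0.0416 for both). Neither passed in all replicates. By the same test, the adjusted p in replicates 1, 2 and 3 was 0.0178, 0.116 and 0.00252 for CACACACA. For CGATA it was 0.0741, 0.00613 and 0.939. The count in flanks was 1 with flanks towards lower coordinates, where the A tract still passed.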

How the data were processed

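Regions were called by the authors from ChIP-seq of 3 biological replicates and deposited as narrowPeak lists. Per the README text deposited with them, a relaxed list of peaks and background was made for each replicate and for the pool, and a final list was thresholded on the irreproducible discovery rate. The sources used here name no aligner, caller, version or threshold. Per the authors' deposited lists, each region has a signal value of unstated normalisation and a -log10 q-value, which was used for an alternative on pooled regions with a q under 0.05.

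Summits were placed on the dm6 genome and the Ensembl release 115 annotation (BDGP 6.54) without transposable elements, in the order promoter, 5' UTR, coding exon, 3' UTR, other exon, intron, intergenic. For shares, Fisher's exact test was used, for counts the exact binomial test given lengths and for differences between odds ratios Zelen's exact test, all two-sided, with Python 3.11.15 and scipy 1.17.1. Odds ratios have 0.5 added to each cell, and intervals are exact (Clopper-Pearson) at 95%. The functions were tested on simulated data. Arms 2R and 4 were left out of all tests, and only their densities are given. Named sites are the 25 X sites of highest signal found in all 3 replicates, up to 4 members of each gene group and the sites at the threshold. Replicates are labelled as biological, but nothing says how their embryos were collected. The members, lists and rules were chosen with earlier results of these data known. Alternatives tried are given in the closing section.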

Additional observations from a re-analysis of the deposited data

Results flagged for a closer look

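Passing regions were set against regions that did not pass, and this contrast differed between the X and 2L, 3L and 3R for 2 location classes by Zelen's exact test of equal odds ratios. Promoters held 39.9% of passing and 22.3% of other regions on the X, against 46.8 and 18.1% on 2L, 3L and 3R. The log2 odds ratio of passing over not passing was 1.21 on the X and 1.99 on the autosomal arms, a difference of -0.78 (exact adjusted p = 1.03e-06). Within replicates 1, 2 and 3 the difference was -0.37, -0.55 and -0.28, and in replicate 3 it did not pass (exact adjusted p = 0.0968). For introns the log2 odds ratio was -0.22 on the X and -0.63 on the autosomal arms, a difference of 0.41 (exact adjusted p = 0.0158), and it was 0.36, 0.34 and 0.39 within the replicates. For intergenic sequence the difference of -0.48 did not pass (exact adjusted p = 0.0641), but within replicates 1, 2 and 3 it was -0.73, -0.56 and -0.49 and passed (exact adjusted p = 0.00203, 0.0272 and 0.0311). The 3' UTR difference of 1.36 did not pass either (exact adjusted p = 0.104), and it passed in replicates 2 and 3 (1.57 and 1.73, exact adjusted p = 0.0272 and 0.0197).

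The A tract, set at summits against flanks, also differed between the X and the other arms. The log2 ratio of discordant pairs was -0.09 on the X and 1.03 on 2L, 3L and 3R, a difference of -1.12 (Fisher's exact test, adjusted p = 0.00710). With flanks towards lower coordinates it was -0.59 and did not pass (exact adjusted p = 0.802). These contrasts were added after the data were examined.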

How the results depend on the processing

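Over 174 alternatives to 35 results, 148 were counted as unchanged, by direction and call or by a value within the replicate SD. Counts of motifs were taken as unchanged over small shifts, such as from 3 to 2 lower than flanks with windows of 25 bp. The intron and intergenic shifts, the lower density of X regions that did not pass and the share of X genes with an intron site kept their calls in the alternatives listed for them, except that among genes over 20 kb the share with an intron site did not pass in replicates 1 and 3 taken alone (exact p = 0.140 and 0.153). The promoter shift fell to -0.18 against 3L alone. The 3' UTR shift lost its call in the 1961 sites of highest signal (0.21), against 2L alone (1.60) and against 3R alone (1.31). The share of bound coding genes was -0.0256 with the nearest coding TSS only. The signal comparison turned to 0.12 against 3R alone for the 1961 strongest sites and to 0.18 against 3L alone for the 392 strongest. For replicate 2 the share of X sites among the best-ranked regions turned to -0.58 for the 1961 strongest sites and to -0.0108 with the 1961 best-ranked regions, and passed at 0.68 against 3L alone. For replicate 3 it turned to 0.0514 for the 1961 strongest sites and passed at -0.37 with the 1961 best-ranked regions. The bin variance over the mean was 4.77 with 0.5 Mb bins, 8.22 with 2 Mb bins and 4.84 for the 1961 strongest sites. With windows of 100 bp each side, 5 motifs were higher at X summits and 2 differed between summits of the X and the other arms. The call of CACGTG was lost in windows of 25 bp (-1.58), 100 bp (-1.03), with flanks towards lower coordinates (-1.58) and for the 1961 strongest sites (-2.07), and that of TAATTA in windows of 25 bp (0.62). The motifs that differed between flanks numbered 5 with windows of 25 bp, and 1 with flanks towards lower coordinates or with the 1961 strongest sites. Leaving out each replicate in turn moved no mean by more than its SD, an outcome fixed in advance for a mean of 3 values. Those alternatives are among the 148 and could not have changed. On the older build dm3 the X had 709 final sites, against 708 on 2L, 825 on 3L and 918 on 3R, and no density was computed because arm lengths of that build were not used here. No paired analysis was possible because the series has 1 group. Library depth is unknown, so its effect on precision was not examined. The causes of these changes were not tested.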
